A study of Rattus norvegicus with 9 samples.

Results

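Long noncoding RNA genes that were expressed in rat cartilage progenitor cells are described here. The members were the genes that the deposited table gives the biotype lincRNA (intergenic), antisense or processed_transcript, and that reached at least 1 FPKM in at least 3 of the 9 libraries. FPKM counts fragments after scaling for how long a gene is and how large a library is. By this rule 164 of the 34267 genes in the table were members, out of 3230 genes with one of these biotypes, 2087 of which were at 0 in every library. The members comprised 126 of 3090 lincRNA genes, 9 of 59 antisense genes and 29 of 81 processed transcripts. Members were thus chosen by their measured FPKM, and the level itself is given as a description.

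The cells were primary cultures from wild-type rat condylar cartilage, the cartilage that caps the jaw joint. Group P9 held cells cultured to passage 9, which the series uses to model replicative senescence. Group FFSS held passage 3 cells under flow fluid shear stress, which the series uses to model degeneration by abnormal mechanical load. Group P3 held passage 3 cells and was the control of both. Each group had 3 libraries of polyadenylated RNA. The records used here give neither the duration nor the strength of flow, nor whether each library had its own animal or culture. A p-value here therefore measures the spread among these 9 libraries, which may be technical. The series asked what the 2 models have in common.

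Long noncoding RNAs are transcripts that are processed much like messenger RNA but are not known to be translated. Some act in the nucleus, as scaffolds of nuclear bodies or as regulators of genes on the same chromosome, and some are the primary transcripts from which microRNAs are cut. Many start close to the promoter of a coding gene and run away from it on the other strand, an arrangement called head to head, and such pairs often share a regulatory region.

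Between 13264930 and 15323790 fragments per library lay on genes, of which 0.274% to 0.404% fell on the 164 members. FFSS replicate 1 stood apart from its group. Across the 13059 genes tested, the correlation of its log2 values with the other FFSS libraries was 0.915 for replicate 2 and 0.947 for replicate 3, and with the P3 libraries it was 0.936 to 0.945. Genes are not independent replicates. Cartilage and progenitor markers, 9 of 9 in the table, had summed levels of 1804 to 2151 FPKM in P9, 2142 to 2209 in FFSS and 2121 to 2131 in P3. Single markers moved apart within these sums, so a similar sum does not mean steady markers. Thy1 had 823, 1196 and 1010 FPKM in P9 and 1437, 1311 and 1296 FPKM in FFSS, against 898, 824 and 949 FPKM in P3. Col11a1 had 194.1, 199.5 and 307.0 FPKM in P9 and 405.1, 522.8 and 506.6 FPKM in FFSS, against 842.6, 917.9 and 809.4 FPKM in P3. Sox9 had 15.3, 9.81 and 13.0 FPKM in FFSS, against 4.72, 4.79 and 4.06 FPKM in P3. Its P9 libraries were also all above those of P3. Acan, the main cartilage proteoglycan, had 609, 576 and 499 FPKM in P9 and 29.3, 48.2 and 43.2 FPKM in FFSS, against 128, 135 and 122 FPKM in P3. Prg4, the lubricant of the joint surface, had 0, 0.0206 and 0.0778 FPKM in P9 and 41.9, 1.77 and 12.9 FPKM in FFSS, against 6.19, 0.798 and 9.28 FPKM in P3. Col2a1, the main collagen of mature cartilage, was at 0 in P9 replicate 1 and did not exceed 1.06 FPKM in any library. The part of these differences in the results was not tested. Leukocyte markers, of which 5 of 7 were in the table and Cd3e was at 0, summed to 0.456 to 1.07 FPKM in P9, 2.24 to 5.80 in FFSS and 0.616 to 1.09 in P3. Their part in the FFSS differences was not tested. In bulk RNA, fewer cells of a type and less RNA per cell cannot be told apart.

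The label of noncoding RNA did not hold for every member. A protein is named in the symbol or description of 26 of the 164, namely 20 processed transcripts, 5 lincRNAs and 1 antisense gene. They include Itgb5, an integrin subunit that binds matrix, and AABR07068316.1, which the table describes as a chain of collagen type VI. Of the 28 members whose symbol matched the RefSeq gene table of build GRCr8, that table lists 18 as protein-coding and 10 as lncRNA. The remaining 138 members are called the noncoding members below. Of these, 123 have only a clone-based name and 13 a LOC number, which leaves Tug1 and Kantr.

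The noncoding members were low and short. Their mean level over the 9 libraries had a median of 2.0 FPKM and a highest value of 76.8 FPKM, against medians of 7.31 FPKM for the 26 members named for proteins and 10.2 FPKM for the 11469 coding genes tested. Median gene length was 801.5 bases for noncoding members, 3743.5 for members named for proteins and 2330 for coding genes. The spread between libraries of a group, as a median SD of log2(FPKM + 1), was 0.360 for noncoding members and 0.227 over all genes tested. Of all members, 79 reached 1 FPKM in each of the 9 libraries and 24 were at 0 in at least 1 library. The X chromosome held 15 of the 164 members (9.15%) and 401 of the 13059 genes tested (3.07%). Just inside the threshold were AABR07004404.1 and AC141377.3, with a third-highest value of 1.01 and 1.03 FPKM. AABR07030834.1 and AABR07044962.1, at 0.982 and 0.976 FPKM, were just outside.

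Well-known long noncoding genes were hardly represented by name. Of 82 symbols in 6 lists (hosts of small nucleolar RNAs, microRNA hosts, imprinted, X inactivation, nuclear or growth-linked, and neighbours of developmental factors), 4 matched a row of the table and 1, Tug1, was a member. Tug1, a conserved noncoding RNA first found as induced by taurine in the retina, had 5.77, 5.26 and 5.04 FPKM in P9, 5.80, 5.76 and 5.72 FPKM in FFSS, and 5.75, 6.33 and 6.18 FPKM in P3. Its log2 change was −0.16 ± 0.11 (SE) in P9 against P3 (adjusted p = 0.445) and −0.07 ± 0.11 in FFSS against P3 (adjusted p = 0.687). The groups overlapped in every comparison and neither difference passed the test. Kantr, an X-linked noncoding gene next to Kdm5c, had 0.674, 1.31 and 1.90 FPKM in P9, 0.307, 0.631 and 1.96 FPKM in FFSS, and 1.11, 2.67 and 1.14 FPKM in P3, and the groups overlapped in every comparison.

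The share of members called in either direction was near that of all genes in P9 against P3 and in P9 against FFSS. In FFSS against P3 it was somewhat lower. With limma on log2(FPKM + 1) and a Benjamini-Hochberg adjusted p under 0.05 over all genes tested, 11 members were higher and 6 lower in P9 than in P3, where 5.39% of all genes were called higher and 4.44% lower. In FFSS against P3, 17 members (10.4%) were higher and 12 (7.32%) lower, where 11.4% of all genes were called higher and 10.4% lower. Between the 2 models, 26 members were higher and 29 lower in P9 than in FFSS, against 16.1% and 15.3% of all genes. In percent of the 164 members these are 10.4%, 17.7% and 33.5% in either direction, beside 9.83%, 21.8% and 31.4% of all genes. The median log2 change of the members was −0.02, −0.03 and −0.03 in the 3 comparisons, and that of all genes −0.00, −0.01 and 0.00. In P9 against P3, groups did not overlap for 28 members (17.1%) that were higher and 33 (20.1%) that were lower. Of all genes, 20.9% and 19.1% did so. These numbers were 22 (13.4%) and 24 (14.6%) in FFSS against P3, beside 20.1% and 22.3% of all genes. In P9 against FFSS they were 33 (20.1%) and 38 (23.2%), beside 22.2% and 20.0% of all genes. A log2 ratio of FPKM + 1 understates the change of a low gene.

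**Figure D1:**
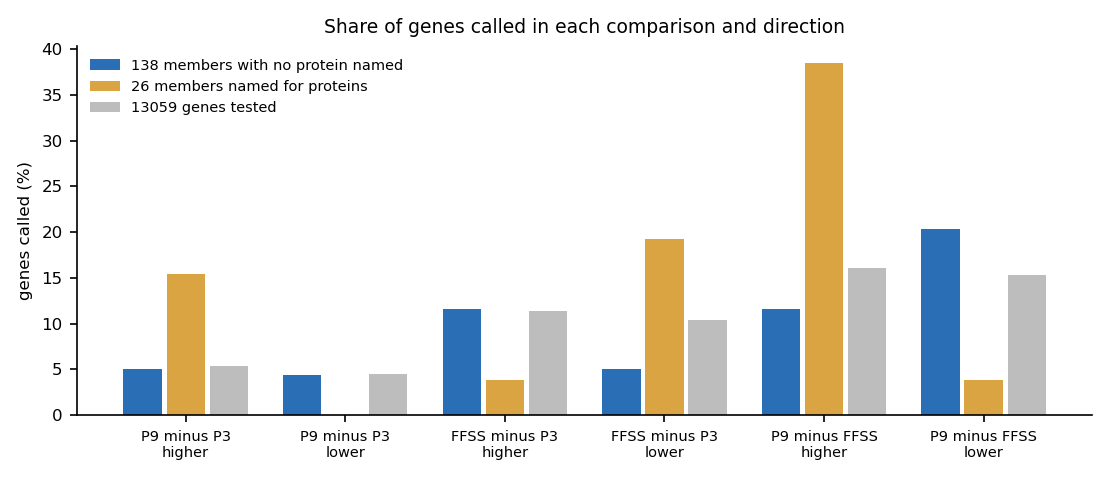
Share of genes called (adjusted p under 0.05, limma) in each comparison and direction, in percent, for the 138 members with no protein named (blue), the 26 members named for proteins (yellow) and all 13059 genes tested (grey). In P9 minus P3, 5.07% of the noncoding members were higher and 4.35% lower, beside 5.39% and 4.44% of all genes; in P9 minus FFSS 20.3% were lower. The 26 are few, so 10 genes make their 38.5%.

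The 26 members named for proteins gave much of the counts in some directions. Among the 138 noncoding members, 7 (5.07%) were higher and 6 (4.35%) lower in P9 than in P3, beside 5.39% and 4.44% of all genes. In FFSS against P3, 16 (11.6%) were higher and 7 (5.07%) lower, beside 11.4% and 10.4% of all genes. In P9 against FFSS, 16 (11.6%) were higher and 28 (20.3%) lower, beside 16.1% and 15.3% of all genes. Single libraries moved the counts too. The share of all genes called moved with them in each case. Without FFSS replicate 1, 30 members were higher and 19 lower in FFSS than in P3 (19.8% and 19.5% of all genes), and 13 were lower in P9 than in P3 (7.70% of all genes). Leaving out FFSS replicate 2, FFSS replicate 3, P3 replicate 1, P3 replicate 2 or P3 replicate 3 gave 11, 10, 7, 11 and 10 members higher in FFSS than in P3, beside 8.81%, 6.04%, 5.03%, 5.59% and 6.06% of all genes. P3 replicate 1 or P3 replicate 3 left out gave 3 and 7 lower in that comparison, beside 4.02% and 5.21% of all genes. The 11 members higher in P9 than in P3 became 7 without P9 replicate 3 or without any 1 of the P3 replicates, where 2.71% to 3.82% of all genes were called higher. The 6 lower became 1 without P9 replicate 1, P9 replicate 2, P3 replicate 1 or P3 replicate 3, where 1.99% to 2.92% of all genes were called lower. Members lower in P9 than in FFSS numbered 18 without FFSS replicate 3, beside 9.74% of all genes.

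A run of 3 lincRNA genes on the minus strand of chromosome 1 was higher under shear stress. The genes AC134224.2 (Rnor_6.0, 221151827 to 221153278), AC134224.1 (221154561 to 221156910) and AC134224.3 (221158098 to 221158792) follow each other on the deposited map, with no coding gene within 5000 bases of any of them.

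AC134224.3 had 102, 147 and 108 FPKM in FFSS libraries and 20.9, 27.6 and 34.6 FPKM in P9 libraries, against 29.7, 38.0 and 35.2 FPKM in P3 libraries. Every FFSS library was above every P3 and P9 library. On the log2 scale the difference was 1.75 ± 0.21 in FFSS against P3 (adjusted p = 0.00128), −0.32 ± 0.21 in P9 against P3 (adjusted p = 0.410) and −2.07 ± 0.21 in P9 against FFSS (adjusted p = 0.00019).

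AC134224.2 had 55.7, 84.2 and 64.7 FPKM under FFSS and 24.5, 22.3 and 23.5 FPKM in P9, against 20.1, 20.5 and 22.6 FPKM in P3. FFSS did not overlap with either of the other groups. It rose by 1.63 ± 0.15 on the log2 scale in FFSS against P3 (adjusted p = 0.000534), with a P9 minus P3 change of 0.15 ± 0.15 (adjusted p = 0.619). For both genes the FFSS difference was called without each of the 9 libraries in turn.

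AC134224.1, which lies between them and was chosen after its values were seen, moved less. Its levels were 39.6, 62.0 and 43.0 FPKM in FFSS and 22.1, 21.0 and 29.4 FPKM in P9, against 28.5, 30.6 and 29.8 FPKM in P3. FFSS was again above the other groups, with a log2 change of 0.65 ± 0.18 (adjusted p = 0.0352). The call was lost without FFSS replicate 2 or 3 or any P3 replicate (adjusted p = 0.0679 to 0.112), with no filter on low values (0.0593) and in a fit of only the 2 groups (0.0517). Its difference of −0.95 ± 0.18 in P9 against FFSS (adjusted p = 0.00521) was called without each library. Neighbouring genes on one strand can share a transcript, so the 3 are not independent observations.

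A microRNA gene lies within 10000 bases of 8 members, on the same strand in 4 of them. In FFSS against P3, 2 of the 8 were called, 1 lower and 1 higher, beside 21.8% of all genes, and the other 6 did not pass. AABR07065531.5 lies within 10000 bases of Mir770 and AABR07072236.1 within 10000 bases of Mir568, in each case on the same strand. Their mature sequences are printed from RefSeq (GRCr8) to show which microRNAs the 2 loci encode, with the seed, bases 2 to 8, in capitals. The seeds of the 3 differ from each other. Mature microRNAs were not measured in these libraries: a value for a microRNA gene counts fragments of polyadenylated RNA that cover its hairpin.
rno-miR-770-5p: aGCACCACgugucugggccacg
rno-miR-770-3p: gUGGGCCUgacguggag
rno-miR-568: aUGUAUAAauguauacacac
The first is at chr6:134298094-134298115 and the second at chr6:134298129-134298145, both on the plus strand, and the third is at chr11:70559921-70559940 on the minus strand.

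AABR07065531.5 is a lincRNA of chromosome 6 (Rnor_6.0, 133667975 to 133676907, plus strand) that ends 6050 bases before Mir770. The next coding genes with a symbol in both tables are Dlk1, 84224 bases away, and Ppp2r5c. RefSeq's GRCr8 table lists 8 lncRNA genes between those 2, among them Meg3, an imprinted noncoding RNA that hosts Mir770 in mouse. The row itself carries no such name.

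AABR07065531.5 had 4.47, 8.83 and 6.69 FPKM in FFSS libraries and 20.0, 16.5 and 34.4 FPKM in P9 libraries, against 21.7, 18.2 and 17.4 FPKM in P3 libraries. The FFSS libraries were the 3 lowest, while P9 and P3 overlapped. It fell by 1.42 ± 0.28 on the log2 scale in FFSS against P3 (adjusted p = 0.00987), and its P9 minus FFSS difference was 1.66 ± 0.28 (adjusted p = 0.00293). Both were called without each library in turn. Its P9 minus P3 difference was 0.23 ± 0.28 (adjusted p = 0.690).

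Both microRNA genes that flank AABR07065531.5 on the same strand were low under shear stress as well. Mir770 had 0.711, 0 and 0 FPKM in FFSS libraries, against 2.81, 6.94 and 6.49 FPKM in P3 libraries, with a log2 change of −2.35 ± 0.44 (adjusted p = 0.00818). The microRNA gene AABR07065531.1, which ends 5372 bases before the member, had 7.52, 0.858 and 0 FPKM in FFSS, against 15.7, 29.0 and 16.9 FPKM in P3 (log2 change −3.05 ± 0.68, adjusted p = 0.0150). In both genes the FFSS libraries were all below the P3 libraries. In P9 the levels were 1.56, 5.58 and 5.92 FPKM for Mir770 and 16.5, 19.7 and 34.0 FPKM for AABR07065531.1, and each overlapped with P3. Such short genes rest on few fragments.

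AABR07072236.1, on the minus strand of chromosome 11 (61994181 to 61995549), lies 478 bases from Mir568 and overlaps the coding gene Gramd1c, a sterol-binding domain protein, on the opposite strand. It had 5.67, 53.4 and 28.4 FPKM in FFSS and 4.93, 3.98 and 3.53 FPKM in P9, against 1.26, 2.38 and 1.93 FPKM in P3. FFSS replicate 1 was far below its 2 partners and close to P9, yet every FFSS library was above every P3 library. The gene rose by 2.96 ± 0.62 on the log2 scale in FFSS against P3 (adjusted p = 0.0123). The call was lost without P3 replicate 1 (adjusted p = 0.0512) and with limma-voom on recovered fragments (0.0513). In P9 against FFSS the change was −2.11 ± 0.62 (adjusted p = 0.0321), and it was lost without any 1 of the P9 replicates, FFSS replicate 2, FFSS replicate 3 or P3 replicate 3 (0.0501 to 0.103) and in 3 other settings (no filter, only the 2 groups, and limma-voom, 0.0639 to 0.0760).

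Mir568 had 15.3, 107 and 75.7 FPKM in FFSS, against 6.20, 12.8 and 4.94 FPKM in P3, with the same low FFSS replicate 1 and a log2 change of 2.61 ± 0.67 (adjusted p = 0.0247). Gramd1c had 0.521, 0.747 and 0.690 FPKM in FFSS, against 0.611, 1.15 and 0.598 FPKM in P3, which overlap (log2 change −0.10 ± 0.19, adjusted p = 0.732). Whether the counting used strand is not given in the sources used here, so fragments of a member and of an overlapping gene on the other strand cannot be told apart in general.

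**Figure D2:**
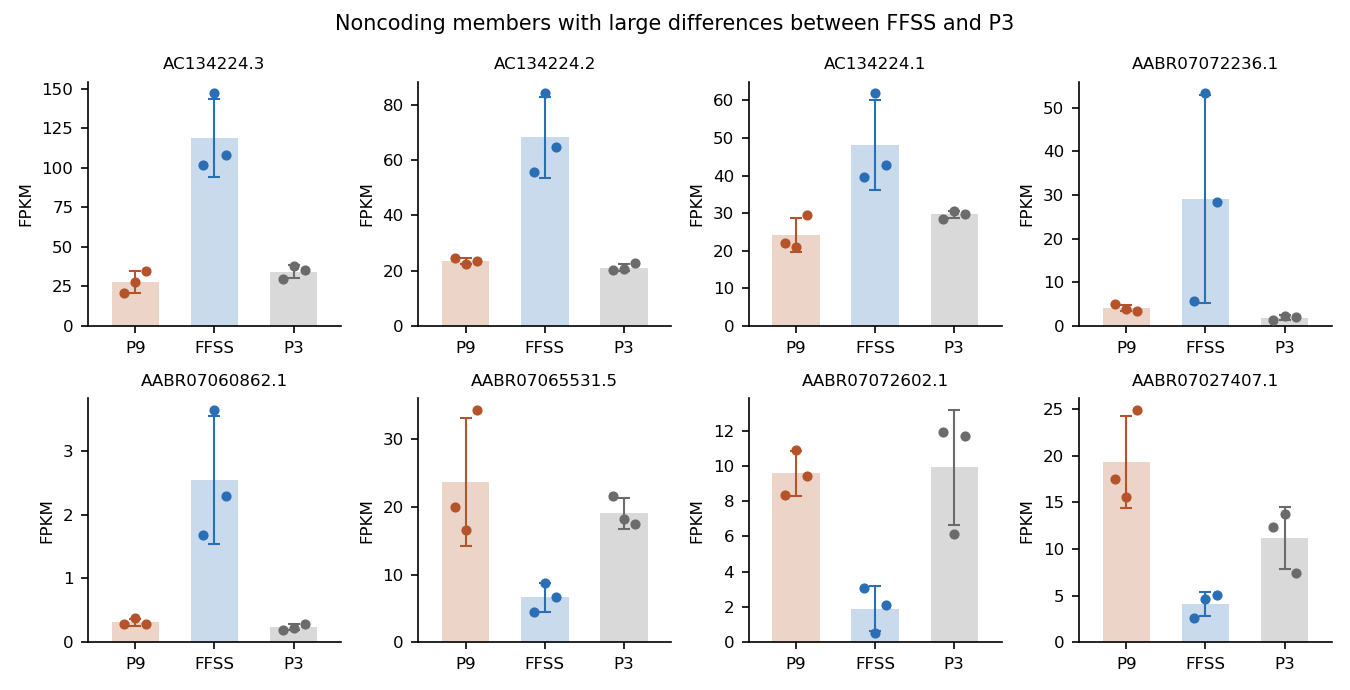
FPKM in each library (points) of 8 noncoding members called between FFSS and P3, with the mean (bar) and SD (line, n = 3) of groups P9, FFSS and P3; each panel has its own axis. The 3 genes named AC134224 stand higher in FFSS than in the other groups, and AABR07065531.5, AABR07072602.1 and AABR07027407.1 stand lower; in AABR07072236.1 FFSS replicate 1 is at 5.67 FPKM and the highest library at 53.4 FPKM.

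The most abundant noncoding member was AABR07039356.2, an X-chromosome lincRNA (74333329 to 74337975, minus strand). It overlaps the coding gene LOC680227 on the opposite strand and lies between Tsx and Zcchc13. The GRCr8 table of RefSeq lists 3 lncRNA genes between those flanks, namely LOC134484082, Xist and Ftx, and the row itself carries none of these names.

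AABR07039356.2 had 74.4, 32.4 and 58.0 FPKM in FFSS and 90.1, 60.9 and 74.1 FPKM in P9, against 102, 102 and 97.1 FPKM in P3. All P3 libraries were above all others. On the log2 scale it changed by −0.94 ± 0.27 in FFSS against P3 (adjusted p = 0.0378) and −0.44 ± 0.27 in P9 against P3 (adjusted p = 0.390). The FFSS call was lost without P9 replicate 2 or 3, FFSS replicate 2 or 3, or any P3 replicate (adjusted p = 0.0502 to 0.107), with no filter (0.0713) and with only the 2 groups (0.0709). LOC680227 on the other strand had 43.7, 16.9 and 34.2 FPKM in FFSS, against 58.5, 59.9 and 60.1 FPKM in P3, with a log2 change of −0.99 ± 0.31 that did not pass (adjusted p = 0.0514).

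Other noncoding members that rose under shear stress lay beside coding genes or far from any. AABR07015917.1 (chromosome 14, 86100050 to 86101181, plus strand) lies 96 bases from Aebp1, a secreted collagen-binding protein, on the same strand. It had 5.05, 4.53 and 5.24 FPKM in FFSS and 1.23, 2.04 and 2.08 FPKM in P9, against 2.46, 2.26 and 2.36 FPKM in P3. The 3 groups did not overlap, with FFSS highest and P9 lowest. Its log2 change was 0.82 ± 0.16 in FFSS against P3 (adjusted p = 0.00904) and −1.11 ± 0.16 in P9 against FFSS (adjusted p = 0.00129), both called without each library. Aebp1 itself had 634, 692 and 669 FPKM in FFSS, against 539, 551 and 492 FPKM in P3, without overlap. Its log2 change of 0.33 ± 0.13 in FFSS against P3 did not pass (adjusted p = 0.105). In P9 against FFSS, Aebp1 was lower, as the member was, by −0.61 ± 0.13 (adjusted p = 0.00973).

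AABR07030366.1 starts 2497 bases from Col1a1, the main chain of type I collagen, and is read away from it on the other strand (chromosome 10, 82738276 to 82743304). It had 5.27, 4.31 and 4.78 FPKM in FFSS and 1.36, 2.15 and 1.85 FPKM in P9, against 1.98, 1.43 and 2.59 FPKM in P3. FFSS did not overlap with P3 or P9. The member rose by 0.96 ± 0.19 in FFSS against P3 (adjusted p = 0.00894), called without each library, while Col1a1 was lower.

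Col1a1 had 4988, 3804 and 4452 FPKM in FFSS, against 9759, 10290 and 9283 FPKM in P3. Its log2 change was −1.15 ± 0.16 (adjusted p = 0.00231), opposite in sign to that of its neighbour. In P9 the coding gene was also lower than in P3, at 4510, 5122 and 4781 FPKM (log2 change −1.03 ± 0.16, adjusted p = 0.00391), with a member change of −0.10 ± 0.19 (adjusted p = 0.813).

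AABR07045680.1 (chromosome 20, 56198049 to 56199332, plus strand) lies 1024 bases from Cd99, a surface adhesion protein, on the other strand. It had 5.47, 12.6 and 10.3 FPKM in FFSS and 2.58, 1.65 and 2.88 FPKM in P9, against 2.83, 2.74 and 2.90 FPKM in P3. The FFSS libraries were the 3 highest, with replicate 1 the lowest of them. It rose by 1.39 ± 0.27 on the log2 scale in FFSS against P3 (adjusted p = 0.00882) and differed by −1.59 ± 0.27 in P9 against FFSS (adjusted p = 0.00273), both called without each library. Cd99 had 357, 406 and 407 FPKM in FFSS, against 256, 255 and 227 FPKM in P3, without overlap. Its log2 change of 0.66 ± 0.21 in FFSS against P3 did not pass (adjusted p = 0.0514). In P9 against FFSS, Cd99 was lower by −0.99 ± 0.21 (adjusted p = 0.00779), the same direction as the member.

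AABR07060862.1 (chromosome 4, 97829341 to 97833460) became a member through FFSS alone, so part of its difference follows from the rule. Its levels were 1.68, 3.64 and 2.28 FPKM in FFSS and 0.289, 0.378 and 0.281 FPKM in P9, against 0.200, 0.220 and 0.288 FPKM in P3. It was above 1 FPKM in every FFSS library and in no other. It rose by 1.48 ± 0.22 in FFSS against P3 (adjusted p = 0.00318), called without each library.

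AABR07042454.2 (chromosome X, 157347219 to 157353457), 120 bases from the spindle gene Haus7 on the same strand, had 10.8, 8.44 and 12.0 FPKM in FFSS, against 3.36, 2.15 and 0.574 FPKM in P3. In P9 it had 3.11, 8.34 and 8.91 FPKM, which overlaps with both other groups. The increase in FFSS was 2.02 ± 0.42 on the log2 scale (adjusted p = 0.0120) and was called without each library. At 236 bases the gene rests on 29 to 42 fragments in FFSS libraries and 2 to 12 in P3 libraries.

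AABR07019209.1 (chromosome 15, 93643039 to 93643565) overlaps Mycbp2, a ubiquitin ligase, on the opposite strand. It had 51.4, 66.8 and 50.6 FPKM in FFSS and 31.4, 36.1 and 36.2 FPKM in P9, against 36.3, 37.8 and 35.4 FPKM in P3. FFSS was above both other groups, with a log2 change of 0.60 ± 0.13 (adjusted p = 0.0129) that was lost without P3 replicate 1 (0.0547) or P3 replicate 3 (0.0510).

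AABR07033666.1 (chromosome 11, 34310191 to 34313728) had 0.972, 5.15 and 3.10 FPKM in FFSS, against 0.961, 0 and 0.328 FPKM in P3. FFSS replicate 1 stood just above the highest P3 library, at 6 fragments each. The gene reached 1 FPKM only in FFSS replicates 2 and 3 and P9 replicate 2, so part of its difference follows from the rule. The call (log2 change 1.42 ± 0.41, adjusted p = 0.0393) was lost without any 1 of the libraries other than FFSS replicate 1 (adjusted p = 0.0541 to 0.131), with a pseudocount of 0.1 (0.0501), no filter (0.0735), only the 2 groups (0.0830) and limma-voom (0.0614). The coding gene Sim2 lies within 5000 bases on the other strand. Sim2 had 4.34, 4.70 and 5.26 FPKM in FFSS, against 2.55, 2.80 and 2.27 FPKM in P3 (log2 change 0.70 ± 0.14, adjusted p = 0.0112).

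AABR07006625.1, an antisense gene within Dock8 (a regulator of actin in immune cells) on chromosome 1 (243033437 to 243034383), had 0 fragments in all P9 libraries. FFSS libraries had 1.18, 2.55 and 3.56 FPKM, from 9, 19 and 27 fragments, and P3 libraries had 0.518, 0 and 1.19 FPKM. It reached 1 FPKM in every FFSS library and elsewhere only in P3 replicate 3, so part of its FFSS difference follows from the rule. With 3 fragments taken as the most that 0 allows over the P9 group, it was at least 18.6-fold lower in P9 than in FFSS. That limit covers counting error only and was not itself tested. The limma difference in P9 against FFSS was −1.71 ± 0.34 on log2(FPKM + 1) (adjusted p = 0.00577), called without each library. The FFSS and P3 libraries overlapped. Their difference was called (log2 change 1.13 ± 0.34, adjusted p = 0.0427) but was lost without any P9 replicate, FFSS replicate 2 or 3, or P3 replicate 1 or 2 (0.0576 to 0.142), and with a pseudocount of 0.1 (0.0958), no filter (0.0683), only the 2 groups (0.0906) and limma-voom (0.0650).

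Of the 7 noncoding members called lower in FFSS than in P3, a further 3 are AABR07072602.1, AABR07027407.1 and AABR07008256.1. AABR07072602.1 (chromosome 18, 53216095 to 53272041) had 3.06, 0.523 and 2.14 FPKM in FFSS and 8.37, 10.9 and 9.42 FPKM in P9, against 11.9, 6.17 and 11.7 FPKM in P3. The FFSS libraries were the 3 lowest, and P9 lay within the range of P3. It fell by 1.97 ± 0.36 on the log2 scale in FFSS against P3 (adjusted p = 0.00736), called without each library.

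AABR07027407.1 (chromosome 17, 28825009 to 28829441) had 2.59, 4.69 and 5.06 FPKM in FFSS and 17.5, 15.5 and 24.9 FPKM in P9, against 12.4, 13.7 and 7.41 FPKM in P3. The groups did not overlap and P9 was highest. The decrease in FFSS, −1.25 ± 0.28 (adjusted p = 0.0159), was lost without P3 replicate 1 (0.0651) or P3 replicate 2 (0.0643). The P9 minus P3 difference of 0.76 ± 0.28 did not pass (adjusted p = 0.141), and the P9 minus FFSS difference of 2.0 ± 0.28 passed (adjusted p = 0.00115).

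AABR07008256.1 (chromosome 2, 49789991 to 49794041) was lower in both models. It became a member through P3 alone, so part of its difference from each model follows from the rule. It had 0.440, 0.866 and 0.817 FPKM in P9, 0.241, 0.247 and 0.646 FPKM in FFSS, and 2.78, 1.57 and 2.85 FPKM in P3. Every P3 library was above every other library. Its log2 difference was −1.29 ± 0.23 in FFSS against P3 (adjusted p = 0.00640), called without each library. In P9 against P3 it was −0.98 ± 0.23 (adjusted p = 0.0272), lost without any P9 replicate, P3 replicate 1 or P3 replicate 3 (0.0587 to 0.121), with a pseudocount of 0.1 (0.0631) and with limma-voom (0.0507). Both comparisons share the P3 libraries.

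At passage 9, 3 noncoding members with no coding gene within 5000 bases changed strongly. AABR07051515.1 (chromosome 3, 14659776 to 14700385, minus strand) had 16.0, 15.9 and 11.1 FPKM in P9 and 0.532, 1.23 and 0.669 FPKM in FFSS, against 2.63, 3.17 and 1.08 FPKM in P3. P9 was far above both other groups, and FFSS and P3 overlapped. Differences on the log2 scale were 2.26 ± 0.28 in P9 against P3 (adjusted p = 0.00154), −0.82 ± 0.28 in FFSS against P3 (adjusted p = 0.0664) and 3.08 ± 0.28 in P9 against FFSS (adjusted p = 0.000127).

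AABR07053481.1 (chromosome 3, 109581331 to 109582502) had 5.90, 4.46 and 4.65 FPKM in P9 and 0.120, 0 and 0 FPKM in FFSS, against 1.18, 0.260 and 0.727 FPKM in P3. The groups did not overlap. It reached 1 FPKM in every P9 library and elsewhere only in P3 replicate 1, so part of its P9 difference follows from the rule. It rose by 1.83 ± 0.22 on the log2 scale in P9 against P3 (adjusted p = 0.00135), and its FFSS minus P3 difference of −0.69 ± 0.22 did not pass (adjusted p = 0.0529). The P9 minus FFSS difference was 2.52 ± 0.22 (adjusted p = 0.000107).

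AABR07066567.1 (chromosome 9, 11582308 to 11589767) went the other way, with 0, 0.218 and 0.616 FPKM in P9 and 2.28, 2.45 and 2.01 FPKM in FFSS, against 1.87, 1.99 and 1.63 FPKM in P3. All P9 libraries were below 1 FPKM and all others above. It fell by 1.17 ± 0.20 in P9 against P3 (adjusted p = 0.00630) and the P9 minus FFSS difference was −1.37 ± 0.20 (adjusted p = 0.00134). The P9 calls of these 3 genes held without each library.

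**Figure D3:**
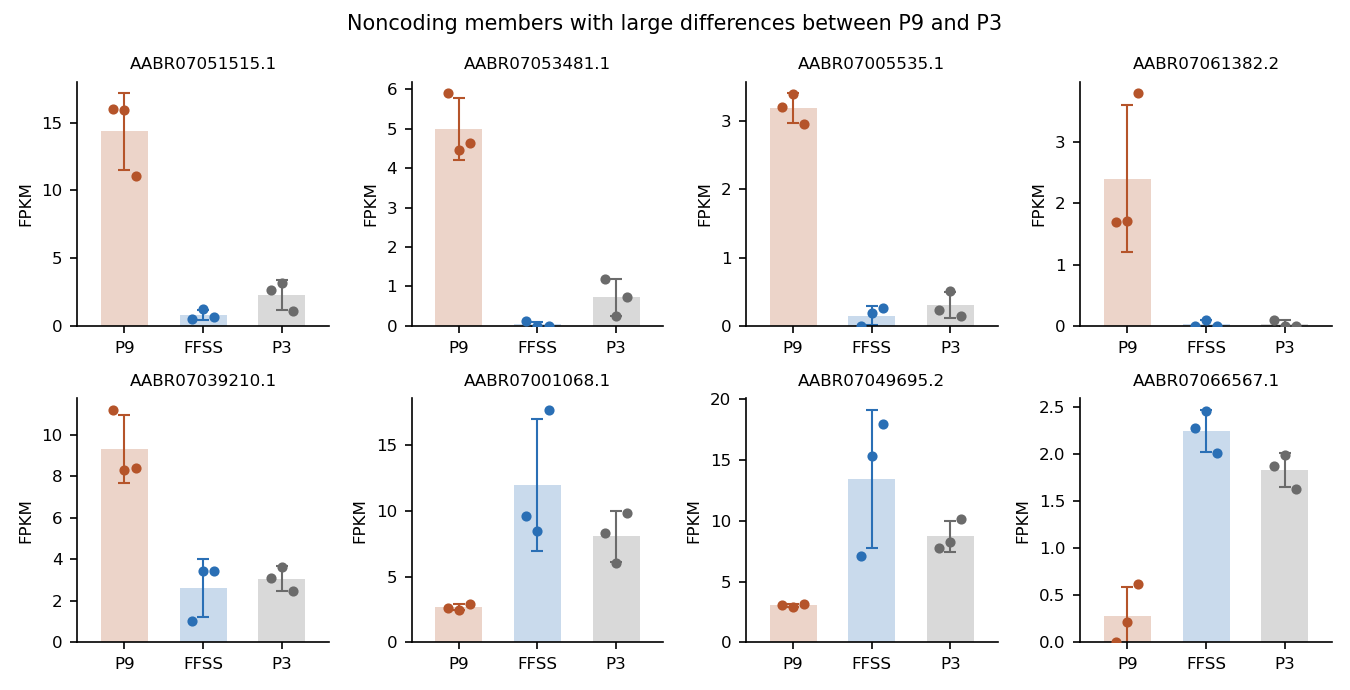
FPKM in each library (points) of 8 noncoding members called between P9 and P3, with the mean (bar) and SD (line, n = 3) of groups P9, FFSS and P3; each panel has its own axis. AABR07051515.1, AABR07053481.1, AABR07005535.1, AABR07061382.2 and AABR07039210.1 stand higher in P9 than in P3; AABR07001068.1, AABR07049695.2 and AABR07066567.1 stand lower.

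For 4 further members the P9 minus P3 call, though not the direction, was lost when single libraries were left out. AABR07039210.1, a processed transcript of the X chromosome (71960851 to 71972810), had 11.2, 8.31 and 8.42 FPKM in P9 and 1.03, 3.43 and 3.43 FPKM in FFSS, against 3.11, 3.64 and 2.47 FPKM in P3. P9 was above both other groups. The P9 minus P3 call (1.34 ± 0.30, adjusted p = 0.0231) was lost without any 1 of the P9 or P3 replicates (0.0502 to 0.0986) and with no filter (0.0517), whereas the P9 minus FFSS call (1.58 ± 0.30, adjusted p = 0.00462) held.

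AABR07001068.1 (chromosome 1, 37059412 to 37162589) had 2.64, 2.46 and 2.91 FPKM in P9 and 9.63, 8.49 and 17.7 FPKM in FFSS, against 8.28, 6.02 and 9.86 FPKM in P3. P9 was the lowest group without overlap. Its decrease of −1.28 ± 0.26 in P9 against P3 (adjusted p = 0.0150) was lost without P9 replicate 1 or 2 or P3 replicate 1 or 3 (0.0528 to 0.0707), and its P9 minus FFSS difference of −1.75 ± 0.26 (adjusted p = 0.00147) held.

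AABR07054460.4 (chromosome 3, 154850173 to 154851168), a lincRNA with 3 small nucleolar RNA genes within 10000 bases on its strand, had 3.51, 2.85 and 3.71 FPKM in P9, against 6.53, 5.10 and 7.51 FPKM in P3. The groups did not overlap. The decrease of −0.75 ± 0.17 (adjusted p = 0.0245) was lost without P9 replicate 1 or 2 or P3 replicate 1 or 3 (0.0600 to 0.110) and with limma-voom (0.0737).

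AABR07063553.1 (chromosome 6, 35091780 to 35096367), 168 bases long, had 8, 2 and 8 fragments in P9 libraries, against 0 in every P3 library. With 3 fragments allowed over the P3 group it was at least 5.82-fold higher in P9. It reached 1 FPKM only in P9 replicates 1 and 3 and FFSS replicate 3, so part of this difference follows from the rule. The call (adjusted p = 0.0344) was lost without P9 replicate 1, P9 replicate 3 or any P3 replicate (0.0961 to 0.118), with no filter (0.0610) and with limma-voom (0.0512).

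A short lincRNA gave a large but unstable decrease in P9 against FFSS. AABR07003349.1 (chromosome 1, 106861356 to 106862934, 165 bases long) had 0.889, 1.19 and 0.750 FPKM in P9, from 2 or 3 fragments each, against 1.22, 36.6 and 29.0 FPKM in FFSS, from 3, 88 and 71 fragments. In P3 it had 7.21, 10.1 and 6.98 FPKM, which lies between the FFSS libraries. The log2 difference of −2.81 ± 0.89 in P9 against FFSS (adjusted p = 0.0411) was lost without any 1 of the libraries other than FFSS replicate 1 (0.0606 to 0.137), with no filter (0.0788), only the 2 groups (0.0926) and limma-voom (0.142).

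Head-to-head pairs with a coding gene were looked at after values were seen. Of the noncoding members, 16 start within 1000 bases of a coding gene that is read the other way, and 3 of the 16 (18.8%) were called in at least 1 comparison, against 52 of all 138 noncoding members (37.7%). These are AABR07061382.2 with Gata2, AABR07005535.1 with Plekha7 and AABR07049695.2 with Foxd2. AABR07061382.2 and AABR07005535.1 met the level threshold only through P9, where they are high, and the pairs were picked for their values, so how often both partners moved the same way is no result. The values of the 3 pairs are given as a description.

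The promoters of Foxd2 and Gata2 are printed because a noncoding member starts within 1000 bases of each and was called in P9 against P3. Each run is 300 bases from RefSeq (GRCr8), 250 before and 50 after the start of the coding gene, on its strand, and that start may differ from the one in the deposited map. Capitals mark CCAAT and CCGCCC, searched on both strands together with TATAAA.
Foxd2: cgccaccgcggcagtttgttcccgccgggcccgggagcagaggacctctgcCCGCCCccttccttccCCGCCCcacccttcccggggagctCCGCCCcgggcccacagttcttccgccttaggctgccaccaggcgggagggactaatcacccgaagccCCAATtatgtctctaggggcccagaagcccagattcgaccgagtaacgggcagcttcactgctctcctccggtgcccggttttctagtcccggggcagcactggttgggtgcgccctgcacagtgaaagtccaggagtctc
Gata2: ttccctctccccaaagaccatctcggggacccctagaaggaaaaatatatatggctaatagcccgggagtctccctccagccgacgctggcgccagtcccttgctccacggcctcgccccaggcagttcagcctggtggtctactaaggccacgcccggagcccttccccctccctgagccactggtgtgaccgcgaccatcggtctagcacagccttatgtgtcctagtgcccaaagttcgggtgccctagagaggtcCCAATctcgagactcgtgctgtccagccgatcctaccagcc
The first window is chr5:133667434-133667733 on the minus strand and the second chr4:122216031-122216330 on the plus strand. The Foxd2 window holds CCAAT 1 time and CCGCCC 3 times, the Gata2 window CCAAT 1 time and no CCGCCC, and neither holds TATAAA. Of 33469 promoters of the same length, 37.5% hold CCAAT, 33.1% hold CCGCCC and 14.2% hold TATAAA. CG pairs number 21 for Foxd2 and 16 for Gata2, where the median promoter has 7, and G and C make up 67.0% and 61.3%, where the median is 51.7%. No promoter of Plekha7 is printed.

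Gata2 encodes a transcription factor of blood and mesenchymal progenitors, and AABR07061382.2 (chromosome 4, 120129194 to 120133017, minus strand) starts 696 bases from it. The member had 1.70, 1.72 and 3.79 FPKM in P9 and 0, 0.103 and 0 FPKM in FFSS, against 0.0989, 0 and 0 FPKM in P3. It became a member through P9 alone, so part of its difference follows from the rule. The log2 change was 1.67 ± 0.24 in P9 against P3 (adjusted p = 0.00335).

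Gata2 had 4.30, 5.69 and 5.55 FPKM in P9 and 0.157, 0.644 and 0.888 FPKM in FFSS, against 0.640, 1.17 and 0.437 FPKM in P3. P9 was above all other libraries for both partners. Gata2 rose by 1.84 ± 0.24 on the log2 scale in P9 against P3 (adjusted p = 0.00191), and FFSS against P3 gave −0.17 ± 0.24 (adjusted p = 0.636).

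Foxd2 encodes a forkhead transcription factor, and AABR07049695.2 (chromosome 5, 133710150 to 133711520, plus strand) starts 438 bases from it. The member had 3.07, 2.89 and 3.16 FPKM in P9 and 7.07, 15.3 and 18.0 FPKM in FFSS, against 7.76, 8.26 and 10.2 FPKM in P3. P9 was below both other groups, which overlapped. The decrease of −1.26 ± 0.28 in P9 against P3 (adjusted p = 0.0239) was lost without any 1 of the P9 or P3 replicates (0.0631 to 0.101), with no filter (0.0503) and with limma-voom (0.0657). The P9 minus FFSS difference was −1.75 ± 0.28 (adjusted p = 0.00224), called without each library.

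Foxd2 had 0.691, 1.85 and 2.17 FPKM in P9 and 14.5, 15.3 and 15.8 FPKM in FFSS, against 15.5, 13.7 and 15.6 FPKM in P3. P9 was lowest by far, and FFSS and P3 overlapped. The log2 change was −2.68 ± 0.22 in P9 against P3 (adjusted p = 0.000273) and 0.03 ± 0.22 in FFSS against P3 (adjusted p = 0.945). AABR07049695.3 follows the member on the same strand (133717759 to 133721348) and had 2.26, 3.03 and 2.80 FPKM in P9, against 6.38, 18.6 and 13.5 FPKM in FFSS, without overlap (log2 difference −1.80 ± 0.31, adjusted p = 0.00317). Its P9 minus P3 difference, −0.96 ± 0.31, did not pass (adjusted p = 0.0957).

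Plekha7 encodes a protein of the adherens junction, and AABR07005535.1 (chromosome 1, 185353166 to 185356627, minus strand) starts 348 bases from it. The member, which met the threshold in P9 only, had 3.21, 3.39 and 2.95 FPKM in P9 and 0, 0.182 and 0.268 FPKM in FFSS, against 0.234, 0.513 and 0.150 FPKM in P3. P9 was above all other libraries, and FFSS and P3 overlapped. The log2 change was 1.70 ± 0.18 in P9 against P3 (adjusted p = 0.000775) and −0.17 ± 0.18 in FFSS against P3 (adjusted p = 0.525). Part of the P9 difference follows from the rule.

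Plekha7 itself was lowest in FFSS. It had 21.1, 23.3 and 25.2 FPKM in P9, 0.659, 0.556 and 0.825 FPKM in FFSS, and 13.9, 19.3 and 9.71 FPKM in P3. The 3 groups did not overlap. Its log2 change was 0.71 ± 0.21 in P9 against P3 (adjusted p = 0.0738), −3.14 ± 0.21 in FFSS against P3 (adjusted p = 8.56e-05) and 3.85 ± 0.21 in P9 against FFSS (adjusted p = 1.03e-05).

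**Figure D4:**
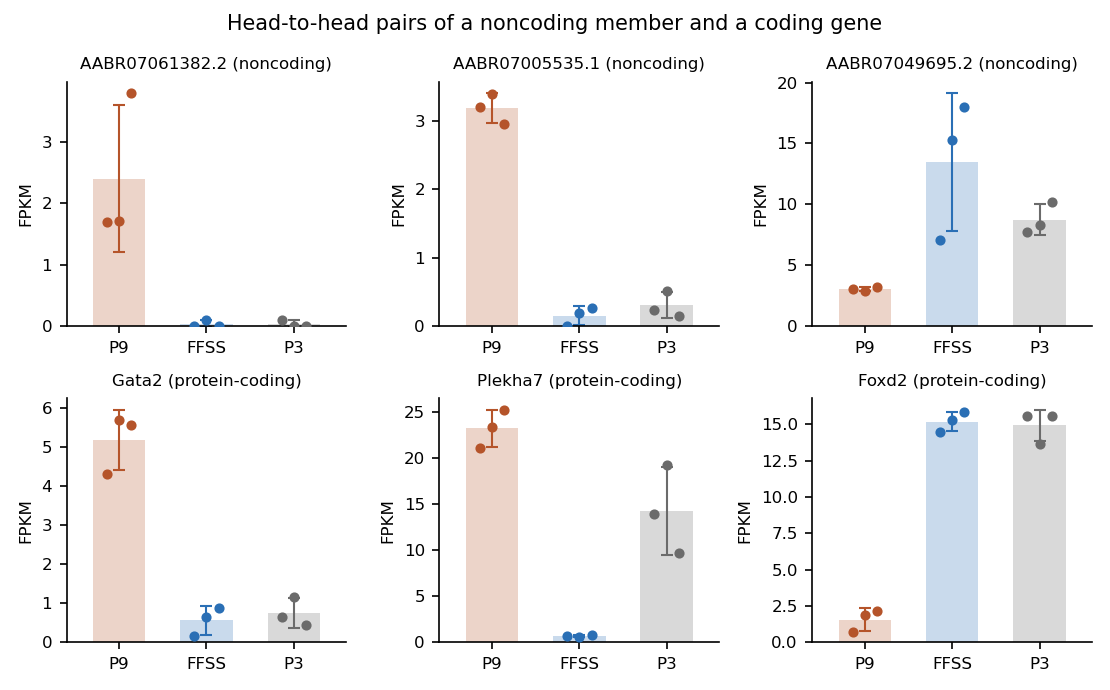
FPKM in each library (points) for 3 noncoding members (upper row) and the coding gene that each faces head to head (lower row), with the mean (bar) and SD (line, n = 3) of groups P9, FFSS and P3; each panel has its own axis. Both partners are highest in P9 for AABR07061382.2 with Gata2 and AABR07005535.1 with Plekha7, and both are lowest in P9 for AABR07049695.2 with Foxd2; Plekha7 is high in P3 where its partner is not.

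The 26 members named for proteins are given apart. In P9 against P3, 4 of them were higher and 0 lower, beside 5.39% and 4.44% of all genes. In FFSS against P3, 1 was higher and 5 lower, beside 11.4% and 10.4% of all genes. In P9 against FFSS, 10 were higher and 1 lower, beside 16.1% and 15.3% of all genes. Whether their fragments came from a coding or a noncoding transcript of the gene cannot be told from these values.

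Bves, which encodes a membrane protein of striated muscle and epithelium, had 29.9, 22.7 and 21.3 FPKM in P9 and 2.94, 5.19 and 4.87 FPKM in FFSS, against 6.79, 8.77 and 4.07 FPKM in P3. P9 was above all other libraries. It rose by 1.80 ± 0.27 in P9 against P3 (adjusted p = 0.00359), called without each library, and FFSS against P3 gave −0.48 ± 0.27 (adjusted p = 0.224). All 5 of 5 skeletal muscle markers were in the table. They summed to 4.42 to 5.36 FPKM in P9, 0.522 to 0.805 in FFSS and 0.492 to 2.88 in P3. Most of the P9 sum was Myh1, at 4.53, 4.87 and 2.98 FPKM, against 0.266, 0.356 and 0.243 FPKM in P3. Des had 0.438, 0.422 and 0.796 FPKM in P9, against 1.25, 2.37 and 0.249 FPKM in P3. In P9, Myog was at 0, Ckm at 0, 0 and 0.0430 FPKM, and Myod1 at 0.188, 0.0673 and 0.604 FPKM. The part of these markers in the Bves result was not tested.

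Plekha6, a relative of Plekha7, had 6.57, 5.88 and 5.85 FPKM in P9, against 2.70, 2.73 and 2.42 FPKM in P3, without overlap (log2 change 0.97 ± 0.12, adjusted p = 0.00136). Hs6st3, a heparan sulfate sulfotransferase, had 1.56, 1.64 and 2.32 FPKM in P9, against 0.165, 0.227 and 0.127 FPKM in P3 (log2 change 1.27 ± 0.19, adjusted p = 0.00382), having met the threshold in P9 only. Both were called without each library. Part of the Hs6st3 difference follows from the rule, which leaving out a library does not remove. Arid5b, a chromatin protein with roles in cartilage in mouse, had 20.8, 24.9 and 22.1 FPKM in P9, against 16.0, 17.3 and 14.5 FPKM in P3, without overlap. Its call (0.48 ± 0.12, adjusted p = 0.0334) was lost without P9 replicate 2 or 3, FFSS replicate 3 or any P3 replicate (0.0553 to 0.145).

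Itgb5 was the most abundant of all members. It had 189, 274 and 261 FPKM in FFSS and 118, 129 and 161 FPKM in P9, against 118, 135 and 145 FPKM in P3. FFSS lay above both other groups. It rose by 0.84 ± 0.18 in FFSS against P3 (adjusted p = 0.0117), a call lost without P3 replicate 1 (0.0546), and P9 against P3 gave 0.02 ± 0.18 (adjusted p = 0.961).

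The members that fell under shear stress included St8sia2, which adds polysialic acid to neural cell adhesion molecules. It had 4.80, 12.2 and 13.8 FPKM in FFSS and 20.2, 25.7 and 22.1 FPKM in P9, against 28.6, 25.0 and 25.6 FPKM in P3. FFSS was below both other groups. The decrease of −1.39 ± 0.31 (adjusted p = 0.0146) was lost without P3 replicate 1 (0.0577).

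Ly6l had 2.79, 0.617 and 0.275 FPKM in FFSS, against 5.19, 4.21 and 6.37 FPKM in P3 (log2 change −1.64 ± 0.37, adjusted p = 0.0161). FFSS was below P3 throughout, and the call was lost without FFSS replicate 3 (0.0537), P3 replicate 1 (0.0568) or P3 replicate 3 (0.0605). Cacna1i, a calcium channel subunit, had 0.221, 0.0395 and 0.0581 FPKM in FFSS, against 0.884, 0.636 and 0.799 FPKM in P3, and met the threshold in P9 only. Its call (−0.68 ± 0.17, adjusted p = 0.0212) was lost without FFSS replicate 2 or 3 or any P3 replicate (0.0516 to 0.0898).

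Trrap, a scaffold of histone acetyltransferase complexes, had 6.25, 4.23 and 5.49 FPKM in FFSS, against 9.27, 8.47 and 8.60 FPKM in P3. The groups did not overlap, and the decrease of −0.64 ± 0.15 (adjusted p = 0.0200) was lost without FFSS replicate 3 or any P3 replicate (0.0538 to 0.0804). Cep128, a centriole protein, had 1.74, 1.24 and 2.01 FPKM in FFSS, against 2.85, 3.37 and 3.07 FPKM in P3. It too did not overlap, and its decrease of −0.63 ± 0.15 (adjusted p = 0.0198) was lost without any P3 replicate (0.0584 to 0.0782) and with only the 2 groups (0.0514). In P9 against FFSS, Trrap, Cep128 and Cacna1i were higher, by 0.81 ± 0.15, 0.93 ± 0.15 and 1.03 ± 0.17 (adjusted p = 0.00498, 0.00229 and 0.00224), each called without each library. Since Cacna1i met the threshold in P9 only, part of its difference follows from the rule, which leaving out a library does not remove.

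The remaining abundant members did not pass the test. AABR07001382.1, described as a giant nuclear envelope protein with spectrin repeats and 29464 bases long, had 6.35, 29.4 and 28.1 FPKM in FFSS and 9.55, 7.43 and 7.30 FPKM in P9, against 6.60, 6.39 and 6.35 FPKM in P3. FFSS replicate 1 was at the level of P3 and the other 2 were high, so the groups overlapped (log2 change 1.33 ± 0.47, adjusted p = 0.0725). AABR07068316.1, the collagen VI row, had 11.4, 37.4 and 33.8 FPKM in FFSS, against 40.0, 27.3 and 48.7 FPKM in P3 (−0.60 ± 0.47, adjusted p = 0.385). Snx3, a protein of endosomal sorting, had 73.6, 70.6 and 59.1 FPKM in FFSS, against 70.5, 68.1 and 72.1 FPKM in P3 (−0.06 ± 0.12, adjusted p = 0.773). AABR07070131.1, 478 bases from the adhesion gene Ncam1, had 53.4, 20.6 and 28.2 FPKM in FFSS, against 44.2, 57.9 and 37.8 FPKM in P3 (−0.53 ± 0.35, adjusted p = 0.304). In each of these 4 genes FFSS and P3 overlapped.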

How the data were processed

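Polyadenylated RNA of 9 libraries (P9, FFSS and P3, 3 each) was analysed from the FPKM that the authors deposited. Per the submitters' processing notes, HISAT2 2.0.5, featureCounts 1.5.0-p3 and build Rnor_6.0 were used; their settings and the strandedness are not given in the sources used here. Deposited FPKM times gene length was a whole multiple of 1 step per library for 100% of values, within 0.01 of a step, which gave the fragments per gene and totals of 13264930 to 15323790. A count of 0 allows 3 fragments; such limits cover counting error only.

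The level rule of the members (1 FPKM, 3 libraries) was applied to every gene, and the 13059 that passed were fitted with limma 3.58.1 (R 4.3.3) on log2(FPKM + 1), with group means over all 9 libraries and a trend in the spread. Tests were two-sided, with Benjamini-Hochberg adjustment over all genes and a threshold of 0.05. Fits that leave out a library assume that the rest of its group varies like the other groups. The scripts were tested on simulated data. Python 3.11.15, pandas 2.3.3, NumPy 2.4.6 and matplotlib 3.10.9 were used.

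Members and lists were chosen with earlier results of these data known. Named were the 8 members of highest mean, and up to 6 (up to 3 in P9 minus FFSS) of the largest called changes each way among non-overlapping groups with a mean of at least 2 FPKM. Beyond this rule 16 members were named after their values were seen: AC134224.1, AABR07049695.3, AABR07039210.1, AABR07045680.1, AABR07015917.1, AABR07030366.1, AABR07066567.1, AABR07006625.1, AABR07001382.1, Arid5b, Trrap, Plekha6, Cep128, Hs6st3, Cacna1i and Kantr. MicroRNA genes beside members were added in the same way. Map positions come from the deposited table; RefSeq (GRCr8) served for names, gene order and the printed sequences.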

Additional observations from a re-analysis of the deposited data

Results flagged for a closer look

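For the members given here, the P9 and FFSS effects against the same P3 libraries had opposite signs, at least 1 of them was called, and the test of the difference itself (limma, P9 minus FFSS) had an adjusted p under 0.05. The values are log2 differences. Higher in P9 than in FFSS were AABR07051515.1 (3.08), AABR07053481.1 (2.52), Bves (2.28), AABR07027407.1 (2.0), AABR07005535.1 (1.87), AABR07065531.5 (1.66), AABR07039210.1 (1.58), Cacna1i (1.03), Cep128 (0.93), Trrap (0.81) and Arid5b (0.55). Lower in P9 than in FFSS were AC134224.3 (−2.07), AABR07001068.1 (−1.75), AABR07049695.2 (−1.75), AABR07006625.1 (−1.71), AABR07045680.1 (−1.59), AABR07066567.1 (−1.37), AABR07015917.1 (−1.11), AABR07030366.1 (−1.06), AC134224.1 (−0.95) and AABR07019209.1 (−0.68). In none of these members were both effects against P3 called, so opposite responses to the 2 models are not shown. Several of the second effects were smaller than their SE. Examples are Arid5b in FFSS against P3 (−0.08 ± 0.12) and AABR07030366.1 in P9 against P3 (−0.10 ± 0.19). AABR07005535.1 and Cacna1i met the threshold in P9 only, so part of their differences follows from the rule. Many of these members were named for such differences, and no cause was tested.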

How the results depend on the processing

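Counts of called members are given here as higher and lower. The share of all genes called in the same setting follows in percent. With no filter there were 11 lower in P9 minus P3 (2.30%), 28 and 19 in FFSS minus P3 (5.91% and 4.86%), and 44 lower in P9 minus FFSS (9.19%). A filter of 5 FPKM left fewer members and gave 6 and 3 (5.67% and 5.14%), 8 and 7 (12.9% and 12.2%), and 14 and 15 (17.5% and 16.6%) in the 3 comparisons. A log2 fold of at least 1 gave 8 and 7 in FFSS minus P3 (4.86% and 3.12%) and 14 and 18 in P9 minus FFSS (6.12% and 7.08%). Only the 2 groups compared gave 17 and 15 in P9 minus P3 (10.5% and 8.52%) and 17 and 18 in P9 minus FFSS (9.44% and 9.63%). limma-voom gave 2 lower in P9 minus P3 (4.42%). The next 2 alternatives leave the fit and its shares as in the report. With lincRNA alone, 6 and 14 were higher in P9 than in P3 and in FFSS. Without members named for proteins, an alternative chosen after seeing the data, 7 were higher in P9 minus P3, 7 lower in FFSS minus P3 and 16 higher in P9 minus FFSS. Leaving out 1 library gave 7 to 16 higher (2.71% to 9.38%) and 1 to 13 lower (1.99% to 7.70%) in P9 minus P3. In FFSS minus P3 it gave 7 to 30 (5.03% to 19.8%) and 3 to 19 (4.02% to 19.5%). In P9 minus FFSS it gave 19 to 29 (10.7% to 23.4%) and 18 to 39 (9.74% to 22.5%). The cause of these shifts was not tested.

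No named call reversed in any setting run, and 47 of 72 were kept without each of the 9 libraries. Scaling by library totals lost none. Replicate numbers did not pair the samples: deviations of same-numbered libraries had correlations of −0.04 to 0.03. With the replicate number as a block, 8 and 7 members were called in P9 minus P3 (4.21% and 3.31% of all genes). There were 12 and 15 in FFSS minus P3 (9.22% and 8.12%) and 25 and 28 in P9 minus FFSS (14.1% and 13.7%). In that setting 4 of 72 named calls were lost. AC134224.1 (adjusted p = 0.0560) and AABR07033666.1 (0.0719) were lost in FFSS minus P3, and Arid5b (0.0800) and AABR07039210.1 (0.0503) in P9 minus P3. Low fragment counts limit short members most.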
